A study of Homo sapiens with 12 samples.

Results

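The genes described here encode the cytoplasmic actins (ACTB and ACTG1) and the small set of proteins that bind actin monomers or cross-link its filaments: the cofilins CFL1 and CFL2, the profilins PFN1 and PFN2, the beta-thymosins TMSB10 and TMSB4X, and the alpha-actinins ACTN1 and ACTN4. They were chosen by gene symbol, with earlier results of these data known. They are 10 of the 59385 gene names in the table, and all 10 were among the 18166 genes tested. HEK293T, a human embryonic kidney cell line, carried a doxycycline (Dox)-inducible short hairpin RNA, either non-silencing (shCtrl) or against the RNA-binding protein PRRC2B (shPRRC2B). Both lines received Dox for 36 h, and poly(A)-enriched total RNA and polysome-associated RNA were sequenced as biological triplicates of each, which gave 12 libraries (n = 3 in every group). Each line was a stable single clone, so an effect of the shRNA and a difference between clones cannot be told apart. The comparisons ask how the abundance of these mRNAs, and their share on polysomes, differed once PRRC2B was depleted.

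Actin monomers assemble into filaments that grow at the barbed end and shrink at the pointed end. Profilin delivers monomers to growing ends, beta-thymosin holds a pool of monomers out of assembly, cofilin severs and depolymerises old filaments, and alpha-actinin bundles filaments into networks and anchors them at adhesions. Most cell types outside muscle carry the beta and gamma isoforms of cytoplasmic actin side by side, encoded by ACTB and ACTG1.

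Levels are given in CPM, the count of a gene over the TMM-scaled size of its library. A level is thus relative to the other mRNAs of its fraction, and fewer molecules per cell cannot be told apart from a shift among the other mRNAs. Library totals ran from 9855734 to 20837542 counts, and the TMM factors lay between 0.68 and 0.74 in the polysome libraries and between 1.34 and 1.47 in the total libraries. PRRC2B itself stood at 281 ± 28.7 CPM in shCtrl total RNA and at 100.3 ± 2.32 CPM in shPRRC2B total RNA (mean ± SD, n = 3). All 6 markers expected in HEK293T had counts in every library. Of 14 markers of blood, liver, muscle, fibroblasts and endothelium, 13 stayed at or below 3.54 CPM, and COL1A1 ranged from 2.01 to 47.0 CPM. For these markers only, CPM was taken over the library total without TMM scaling.

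ACTB lies on chromosome 7 (GRCh38 chr7:5527148-5530601, minus strand) and ACTG1 on chromosome 17 (chr17:81509971-81512799, minus strand). Their coding sequences, each of 1125 nt without the stop codon, were identical at 1027 positions, or 91.3%. They are the only members on which the study's PAR-CLIP, a crosslinking method that maps where a protein touches RNA, listed PRRC2B sites. Sites were listed for full-length PRRC2B and for a piece of it called the P2 fragment, and each window of 30 nt shown here is centred on the exonic part of their overlap. The windows are shown because they lie within listed sites of both the full-length protein and the P2 fragment. Each listed site on the actin genes spans 100 genomic bases, and a window need not hold the crosslinked position. At ACTB site 2 the full-length and P2 sites share 36 bases. Each is written 5′ to 3′ in the sense of the mRNA, read from GRCh38, and capitals mark its longest run of pyrimidines or of purines (in ACTB site 1 a purine run of equal length is left in lower case).
ACTB site 1: cgacaacggCTCCggcatgtgcaaggccgg
ACTB site 2: gcttcaccaccacggccgagcGGGAAAtcg
ACTG1 site 1: ctctcgcactctgTTCTTCCgccgctccgc
ACTG1 site 2: ccgccgcaTCCTCCTCTTCTCTggagaaga

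The ACTB windows shown lie in the coding sequence at chr7:5529599-5529628 and chr7:5528458-5528487, and hold 13 and 14 pyrimidines among their 30 bases. The first ACTG1 window, at chr17:81512752-81512781, lies in the 5′ UTR and holds 24 pyrimidines. The second ACTG1 window, at chr17:81511275-81511304, lies in the coding sequence and holds 19, of which 14 form 1 unbroken run. The ACTG1 windows were thus richer in pyrimidines than the ACTB windows shown, which need not hold for the whole sites. Over their exonic bases, the full-length sites held 40 of 79 and 51 of 100 pyrimidines in ACTB. The P2 sites there held 57 of 100 and 45 of 100. In ACTG1 both kinds of site held 48 of 66 in the 5′ UTR and 54 of 100 in the coding sequence. Over whole sites, the ACTG1 coding-sequence sites were thus close to the ACTB sites.

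The other members hold no listed site. The cofilin genes are CFL1 (chr11:65854673-65858180, minus strand, canonical transcript of 1245 nt) and CFL2 (chr14:34709113-34714593, minus strand, 4306 nt), which has the longer 3′ UTR, at 3752 against 663 nt. The profilin genes are PFN1 (chr17:4945652-4948530, minus strand, 807 nt) and PFN2 (chr3:149964904-149970895, minus strand, 2047 nt). The thymosin genes are TMSB10 (chr2:84905656-84906671, plus strand) and TMSB4X (chrX:12975110-12977223, plus strand), which encode peptides of 44 codons each. The alpha-actinin genes are ACTN1 (chr14:68874128-68979302, minus strand, 3722 nt) and ACTN4 (chr19:38647649-38731589, plus strand, 4990 nt). Within these pairs the coding sequences were less alike than those of the actins, from 60.5% identity for the profilins to 82.7% for the alpha-actinins.

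**Figure D1:**
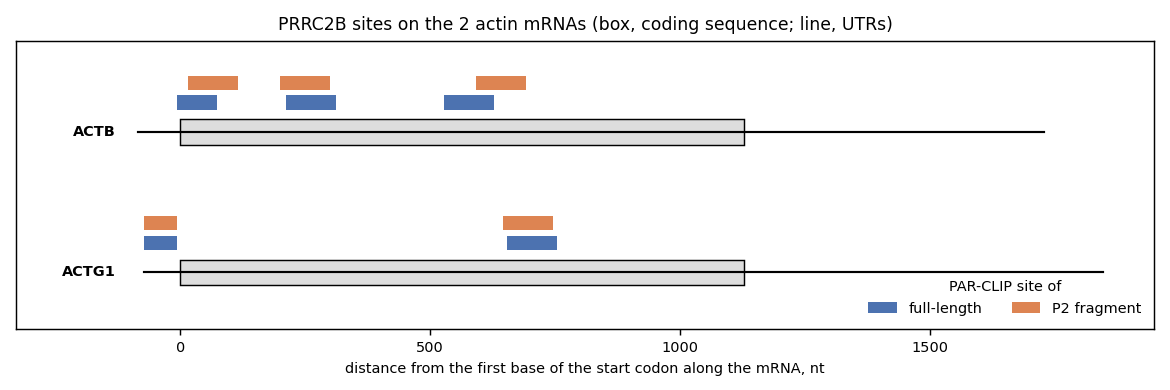
Listed PRRC2B sites of the full-length protein (blue) and of its P2 fragment (orange) along the ACTB and ACTG1 canonical transcripts (x axis, distance in nt from the first base of the start codon); boxes are coding sequence and lines UTRs. The 3 ACTB sites lie in or at the start of the coding sequence, while ACTG1 has 1 site in the 5′ UTR and 1 in the coding sequence.

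Both cytoplasmic actins had a higher mean level in shPRRC2B total RNA and a lower one on shPRRC2B polysomes. In total RNA, ACTB stood at 1128, 1126 and 949 CPM in the shCtrl replicates and at 1443, 1509.6 and 1555 CPM in the shPRRC2B replicates. On polysomes it stood at 1123, 1166 and 1089.5 CPM in shCtrl and at 661, 618 and 446 CPM in shPRRC2B. The lines did not overlap in either fraction. The log2 difference was 0.49 (SE 0.15) in total RNA, with an adjusted p of 0.0151 (edgeR quasi-likelihood fit, Benjamini-Hochberg), short of the 0.5 required for a call. With the length trend removed, ACTB was called higher in total RNA (0.54, adjusted p = 0.009, edgeR), as it was in 3 of the 12 fits that left out 1 library. On polysomes the same test gave -0.97 (SE 0.15, adjusted p = 5.28e-05), and ACTB was called lower.

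ACTG1 stood at 1657, 1793 and 1516 CPM in shCtrl total RNA and at 2285, 2334 and 2268 CPM in shPRRC2B total RNA. On polysomes it stood at 2658, 4572 and 6167 CPM in shCtrl and at 1868, 3519 and 3017 CPM in shPRRC2B. The lines did not overlap in total RNA, but they overlapped on polysomes, where the shCtrl replicates were widely spread. The edgeR log2 difference was 0.47 (SE 0.24, adjusted p = 0.148) in total RNA and -0.67 (SE 0.24, adjusted p = 0.0331) on polysomes. The polysome call rested on single libraries: it was -0.48 (adjusted p = 0.0937) without shCtrl polysome replicate 3 and -0.56 (adjusted p = 0.0681) without shPRRC2B polysome replicate 1. Per kb of transcript, ACTB and ACTG1 together summed to 1452 ± 124 CPM per kb in shCtrl total RNA and 2025 ± 33.6 in shPRRC2B total RNA, and to 2948 ± 908 and 1777 ± 420 on polysomes (SD, n = 3).

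**Figure D2:**
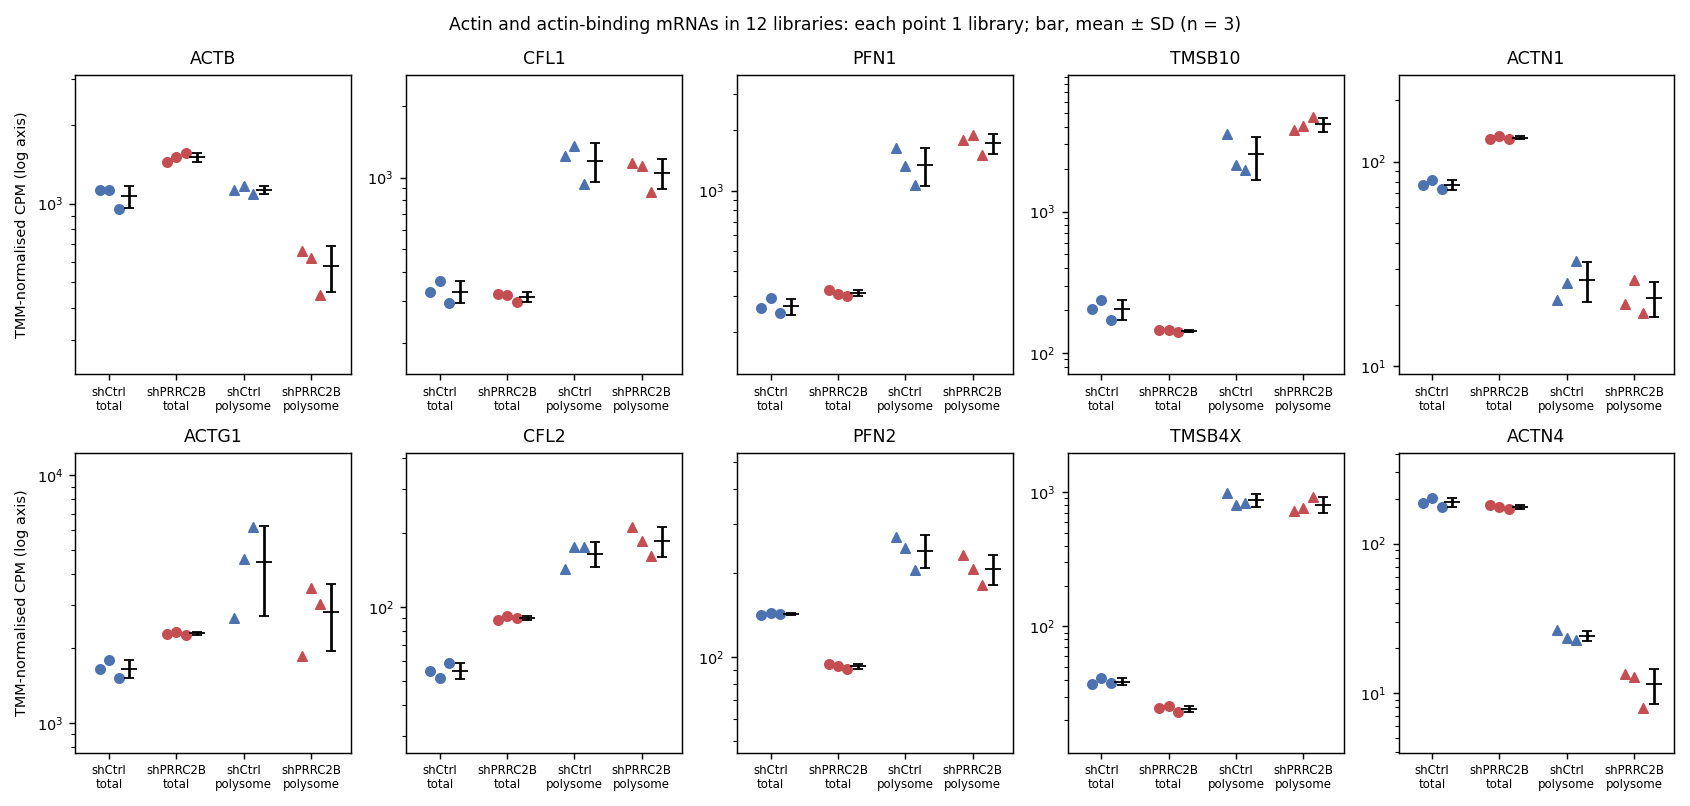
CPM of each member (y axis, log scale) in the 12 libraries, 1 point per library, by line and fraction, with bars for mean ± SD (n = 3). ACTB is the member whose 3 shPRRC2B polysome libraries (446 to 661 CPM) fall below every shCtrl polysome library while its total RNA lies above.

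The translation efficiency (TE) change sets these fractions against each other: it is the log2 polysome-to-total ratio in shPRRC2B minus that in shCtrl. TE-down and TE-up genes had an adjusted p under 0.05 together with a TE change past 0.5 in size. Among the members, 5 were TE-down (ACTB, ACTG1, CFL2, ACTN1 and ACTN4) and 2 were TE-up (TMSB10 and TMSB4X), where 16.4% of all genes tested were TE-down and 10.7% were TE-up. The median TE change was -0.32 over the members and -0.03 over all genes tested.

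The TE change of ACTB was -1.46 (SE 0.21, adjusted p = 0.000112, edgeR), a 2.76-fold lower ratio. That of ACTG1 was -1.14 (SE 0.35, adjusted p = 0.0207), a 2.21-fold lower ratio. ACTB was called TE-down in each of the 12 fits that left out 1 library. The paper instead classes ACTB as a PRRC2B-bound mRNA with unchanged TE. By quantitative PCR of polysome fractions at earlier Dox times, the study saw no shift of ACTB to lighter fractions. The reason for the difference was not tested. ACTG1 lost its call without shCtrl total replicate 3 (-1.09, adjusted p = 0.0507). The PRRC2B-site carriers thus both had lower TE, but 3 members without a listed site were TE-down as well.

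**Figure D3:**
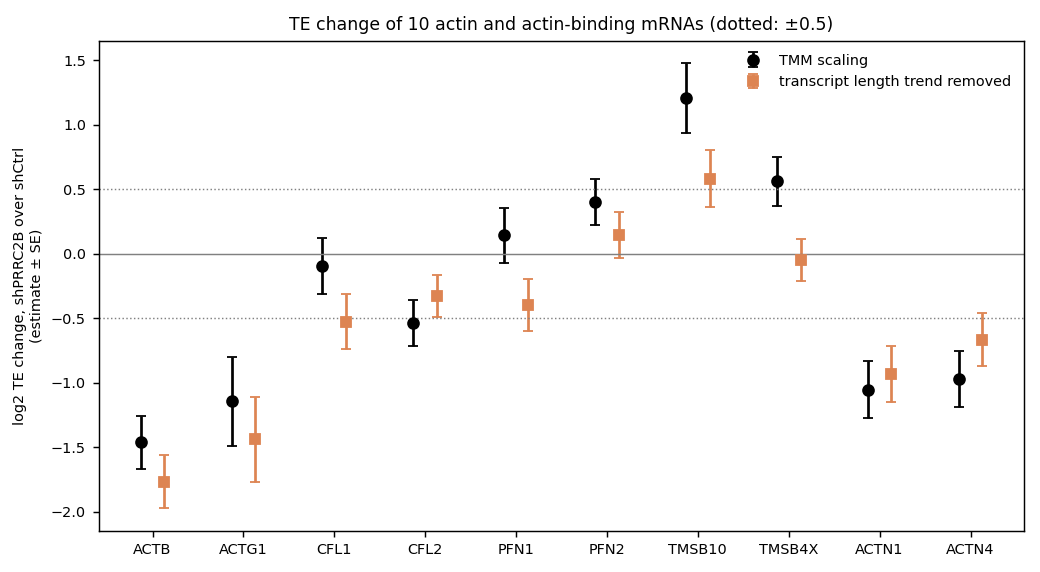
Log2 TE change of each member (y axis, estimate ± SE from edgeR) with TMM scaling (black circles) and with the transcript length trend removed (orange squares); dotted lines mark 0.5 either way. Among the black circles ACTB lies lowest at -1.46 and TMSB10 highest at 1.21, and the orange square of TMSB4X lies at -0.05.

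The beta-thymosins went the other way. TMSB10, which sequesters actin monomers, stood at 205, 236 and 169.9 CPM in shCtrl total RNA and at 146, 144 and 141 CPM in shPRRC2B total RNA. On polysomes it stood at 3527, 2125 and 1976 CPM in shCtrl and at 3773, 4011 and 4666 CPM in shPRRC2B. The lines did not overlap in either fraction, and the line with less TMSB10 in total RNA had more on polysomes. The edgeR log2 difference was -0.50 (SE 0.19, adjusted p = 0.0515) in total RNA, 0.71 (SE 0.19, adjusted p = 0.00621) on polysomes and 1.21 (SE 0.27, adjusted p = 0.00345) for TE. The total RNA difference was close to the thresholds: it was called lower in 7 of the 12 fits that left out 1 library and with total counts in place of TMM (-0.57, adjusted p = 0.0261), and was -0.15 (adjusted p = 0.474) with the length trend removed. The polysome call was lost without shCtrl polysome replicate 2 (0.49, adjusted p = 0.0721) or 3 (0.45, adjusted p = 0.073), or without shPRRC2B polysome replicate 3 (0.52, adjusted p = 0.06), while the TE call held in all 12 fits that left out 1 library.

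TMSB4X, the other monomer-sequestering thymosin, stood at 37.4, 41.4 and 37.6 CPM in shCtrl total RNA and at 24.5, 25.4 and 23.0 CPM in shPRRC2B total RNA. On polysomes it stood at 984, 803 and 835 CPM in shCtrl and at 722, 768 and 929 CPM in shPRRC2B. The lines were apart in total RNA and overlapped on polysomes. Total RNA fell by 0.68 on the log2 scale (SE 0.14, adjusted p = 0.00098, edgeR), the polysome difference was -0.12 (adjusted p = 0.493), and the TE change was 0.56 (SE 0.19, adjusted p = 0.0334). The TE call of TMSB4X held in 3 of the 12 fits that left out 1 library. Gene names of TMSB4X pseudogenes held counts equal to 4.48% of those of TMSB4X, so its level is less certain than that of TMSB10, whose pseudogenes had no counts.

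TMSB4X and TMSB10 are also the shortest transcripts of the set, at 622 and 461 nt, and TE change went with transcript length across genes. Over 15762 genes with a known canonical transcript, the Spearman correlation of TE change with length was -0.41; these genes share their libraries and are not independent. With the length trend of each library removed, the TE change of TMSB10 was 0.58 (adjusted p = 0.0654, edgeR) and that of TMSB4X was -0.05 (adjusted p = 0.883), and neither was called. Under the same setting ACTB was -1.77 and ACTG1 was -1.44, both still TE-down.

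Both alpha-actinins, which bundle filaments, were TE-down. ACTN1 stood at 77.1, 81.6 and 73.2 CPM in shCtrl total RNA and at 129.7, 133 and 129.2 CPM in shPRRC2B total RNA. On polysomes it stood at 21.2, 25.5 and 32.8 CPM in shCtrl and at 20.0, 26.3 and 18.3 CPM in shPRRC2B. It rose in total RNA, where the lines did not overlap (0.76, SE 0.15, adjusted p = 0.000894, edgeR), and its polysome difference was -0.30 (adjusted p = 0.15), with overlap.

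ACTN4 stood at 187.5, 202 and 176 CPM in shCtrl total RNA and at 180.0, 175 and 171 CPM in shPRRC2B total RNA. On polysomes it stood at 26.2, 23.4 and 22.7 CPM in shCtrl and at 13.5, 12.8 and 7.99 CPM in shPRRC2B. The lines overlapped in total RNA (-0.10, adjusted p = 0.599, edgeR) and were apart on polysomes, where ACTN4 fell by 1.08 on the log2 scale (SE 0.16, adjusted p = 5.14e-05). The TE changes were -1.06 (SE 0.22, adjusted p = 0.00215) for ACTN1 and -0.97 (SE 0.22, adjusted p = 0.00316) for ACTN4, and each was called in all 12 fits that left out 1 library. Over the alternative settings that kept all libraries, the TE change ranged from -1.10 to -0.93 for ACTN1 and from -1.02 to -0.67 for ACTN4.

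The cofilins differed from each other in total RNA. CFL1, the main non-muscle cofilin, stood at 329 ± 35.0 CPM in shCtrl and 313 ± 14.02 CPM in shPRRC2B total RNA, and at 1178 ± 217 and 1047.5 ± 153 CPM on polysomes (SD, n = 3). With TMM scaling it was called in no comparison between the lines, with a TE change of -0.10 (SE 0.22, adjusted p = 0.786, edgeR). With the length trend removed, CFL1 was called lower on polysomes (-0.51, adjusted p = 0.0121, edgeR). CFL2, the muscle-enriched cofilin, stood at 54.8, 51.2 and 59.0 CPM in shCtrl total RNA and at 88.0, 91.5 and 90.0 CPM in shPRRC2B total RNA, with no overlap. It rose by 0.71 on the log2 scale (SE 0.13, adjusted p = 0.000417, edgeR) in total RNA, and its polysome difference was 0.17 (adjusted p = 0.278). Its TE change of -0.54 (SE 0.18, adjusted p = 0.0341) was called in 3 of the 12 fits that left out 1 library, and was -0.33 (adjusted p = 0.17) with the length trend removed.

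The profilins were not called for TE. PFN1, the widely expressed profilin, stood at 268 ± 24.2 CPM in shCtrl and 310.3 ± 10.00 CPM in shPRRC2B total RNA, and at 1340 ± 284 and 1715 ± 198 CPM on polysomes (SD, n = 3), with a TE change of 0.14 (SE 0.22, adjusted p = 0.667, edgeR). PFN2, enriched in neurons, stood at 142, 144 and 143 CPM in shCtrl total RNA and at 94.7, 92.5 and 90.9 CPM in shPRRC2B total RNA. The lines did not overlap, and PFN2 fell by 0.62 on the log2 scale (SE 0.13, adjusted p = 0.00117, edgeR). Its polysome difference was -0.22 (adjusted p = 0.169) and its TE change was 0.40 (SE 0.18, adjusted p = 0.106).

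In total RNA, 2 members were called lower (PFN2 and TMSB4X) and 2 higher (CFL2 and ACTN1), beside 14.1% and 14.9% of all genes tested. On polysomes, 3 were called lower (ACTB, ACTG1 and ACTN4) and 1 higher (TMSB10), beside 21.4% and 18.4%. The member median was 0.07 in total RNA and -0.19 on polysomes, beside 0.04 and -0.01 over all genes tested. The members' counts in total RNA, 2 of 10 either way, were near the background, and so were those on polysomes, 3 lower and 1 higher of 10.

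Ratios of paralogs were taken within each library, since such a ratio does not depend on how libraries are scaled. An exact permutation test of 3 against 3, two-sided, cannot give a p under 0.1, and over the 20 comparisons an exact p of 0.1 became 0.133 after Benjamini-Hochberg adjustment, so none could pass. The ACTB/ACTG1 ratio was 0.68, 0.63 and 0.63 in shCtrl total RNA and 0.63, 0.65 and 0.69 in shPRRC2B total RNA. On polysomes it was 0.42, 0.26 and 0.18 in shCtrl and 0.35, 0.18 and 0.15 in shPRRC2B. The lines overlapped in both fractions, and the log2 ratio differed by 0.02 (SE 0.05) in total RNA and by -0.35 (SE 0.53) on polysomes. In both lines the ratio was lower on polysomes than in total RNA, with no overlap.

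The PFN1/PFN2 ratio had a geometric mean of 1.87 in shCtrl and 3.35 in shPRRC2B total RNA, and of 5.50 and 8.29 on polysomes, without overlap in either fraction (exact p = 0.1 each). The ACTN1/ACTN4 ratio was 0.41 in shCtrl and 0.75 in shPRRC2B total RNA, and 1.08 and 1.91 on polysomes, again without overlap (exact p = 0.1 each). The CFL1/CFL2 ratio was 5.97 and 3.48 in total RNA without overlap, and 7.12 and 5.65 on polysomes with overlap. The TMSB10/TMSB4X ratio was 5.20 and 5.93 in total RNA with overlap, and 2.82 and 5.16 on polysomes without. The change of the log2 ratio on polysomes minus that in total RNA, given as a value with no test, was -0.37 (SE 0.53) for the actins, 0.44 (SE 0.26) for the cofilins, -0.25 (SE 0.12) for the profilins, 0.68 (SE 0.21) for the thymosins and -0.05 (SE 0.31) for the alpha-actinins.

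**Figure D4:**
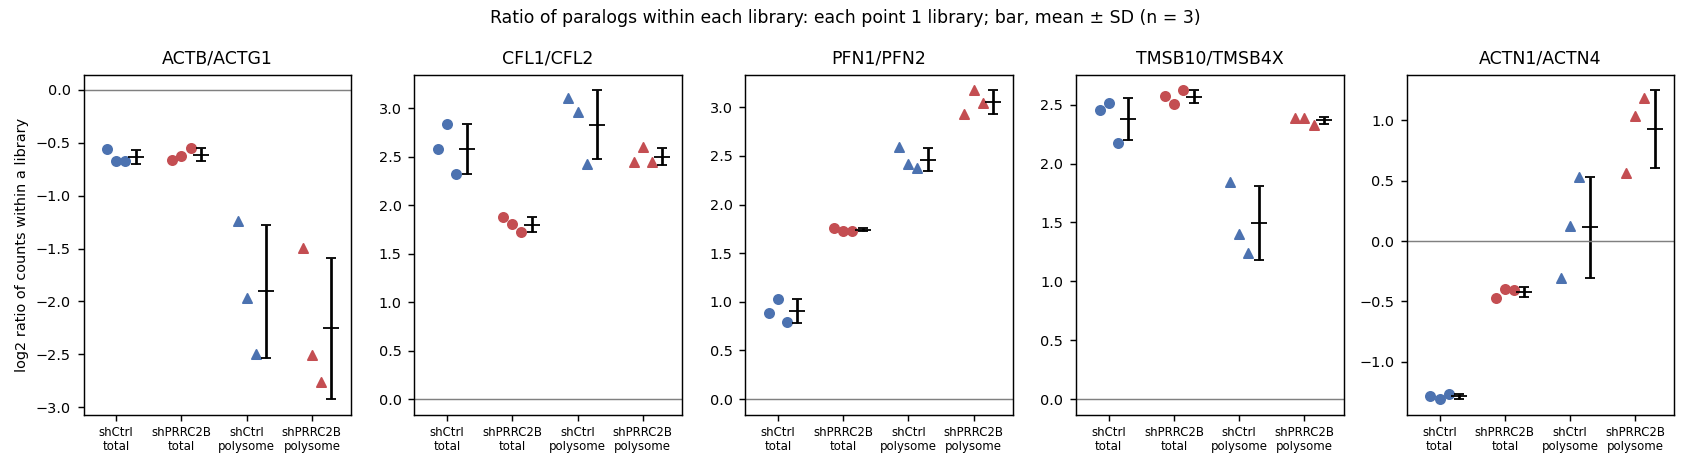
Log2 ratio of paralog counts within each library (y axis), 1 point per library, with mean and SD (n = 3) for each line and fraction. The ACTB/ACTG1 points of the lines overlap in both fractions, whereas those of PFN1/PFN2 and ACTN1/ACTN4 are apart.

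Within a line, the fractions differed widely for most members. In shCtrl, 7 members were higher on polysomes than in total RNA and 2 were lower (ACTN1 and ACTN4), beside 32.5% and 39.8% of all genes tested. In shPRRC2B, 6 were higher and 3 lower (ACTB, ACTN1 and ACTN4), beside 36.6% and 42.3%. The log2 polysome-to-total difference in shCtrl and shPRRC2B was 4.49 and 5.05 for TMSB4X, 3.64 and 4.85 for TMSB10, and -2.96 and -3.94 for ACTN4. It was 0.08 and -1.39 for ACTB and 1.43 and 0.29 for ACTG1. These values depend on scaling the fractions to each other: with total counts in place of TMM the median of all genes moved from -0.22 to -1.22 in shCtrl and to -1.16 in shPRRC2B, and ACTB (-0.92) and PFN2 (-0.24) in shCtrl and ACTG1 (-0.67) in shPRRC2B turned negative. The difference also went with transcript length across genes (Spearman correlation -0.56 in shCtrl and -0.61 in shPRRC2B). Over the alternative settings that kept all libraries, the shCtrl values ranged from 2.22 to 4.53 for TMSB4X and from 1.21 to 3.68 for TMSB10. Those of PFN1 in shCtrl ranged from 0.20 to 2.36.

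**Figure D5:**
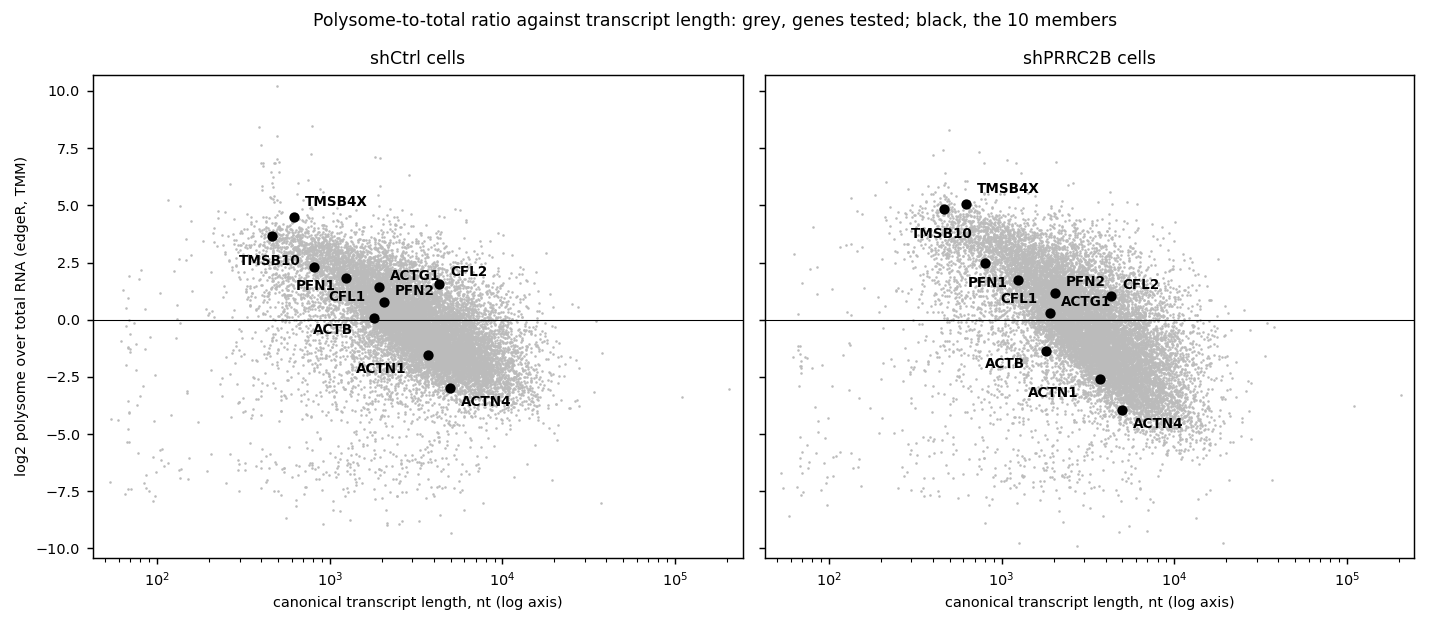
Log2 polysome-to-total difference (y axis) against canonical transcript length in nt (x axis, log scale) in each line, with the genes tested in grey and the 10 members in black. The short thymosin mRNAs lie at the upper left (4.49 and 3.64 in shCtrl) and the long ACTN4 mRNA at the lower right (-2.96).

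The order of the members' levels per kb of transcript differed between the fractions. In shCtrl total RNA it ran ACTG1 (862 CPM per kb), ACTB (589), TMSB10 (442), PFN1 (332), CFL1 (264), PFN2 (69.7), TMSB4X (62.4), ACTN4 (37.8), ACTN1 (20.8) and CFL2 (12.8), with no overlap between neighbours. In shPRRC2B total RNA, PFN1 (385) stood above TMSB10 (312), and ACTN4 (35.2) and ACTN1 (35.1) overlapped. On polysomes TMSB10 led in both lines (5515 and 9002 CPM per kb) and ACTN4 was lowest (4.84 and 2.29). There ACTG1 overlapped with PFN1, and PFN1 with TMSB4X, in shCtrl, and ACTG1 with TMSB4X in shPRRC2B.

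Other genes of the actin cytoskeleton were read from 10 lists of 122 genes in all, of which 112 were tested. The lists too were chosen with earlier results of these data known. By the edgeR fit, 41 were TE-down and 12 TE-up, with a median TE change of -0.41, beside 16.4% TE-down, 10.7% TE-up and a median of -0.03 over all genes tested. The TE-up count was at that background, and the counts of single lists are to be read against the same shares, which those of the Arp2/3 complex were near. Of the 9 subunits of the Arp2/3 complex, which nucleates branched filaments, 2 were TE-down, ACTR2 (-1.28) and ACTR3 (-0.96), and 1 TE-up, ARPC5L (1.00). Among 15 genes of the WAVE and WASP regulators that switch on this complex, 8 were TE-down, including WASF2 (-1.27) and NCKAP1 (-1.06), and BRK1 (0.64) was TE-up. Among 15 tested formins and other nucleators, which start unbranched filaments, 4 were TE-down, including DIAPH1 (-1.63) and DIAPH3 (-1.39), and INF2 (0.58) was TE-up.

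Of 16 tested genes for monomer handling and filament turnover, 6 were TE-down and 2 TE-up. CAP1, which helps recycle cofilin-bound monomers, had a TE change of -0.92, and the coronin CORO1C had -1.12. PDXP (1.61) and SSH2 (1.00), phosphatases that reactivate cofilin, were the TE-up genes. Of 10 tested capping and severing genes, 3 were TE-down, including TMOD3 (-1.66) and CAPZA1 (-1.10), and CAPG (1.04) was TE-up. Of 25 tested cross-linkers, tropomyosins and anchors, the list closest in role to the alpha-actinins, 13 were TE-down, including RDX (-1.74) and SPTBN1 (-1.67), and LCP1 (1.48) and EVL (0.57) were TE-up. The median transcript length of the tested list genes was 3813.5 nt. TE change went with transcript length across genes (Spearman correlation -0.41), and how far length accounts for the TE-down counts of the lists was not tested. The alternative settings that kept all libraries, among them those with the length trend removed, gave 22 to 45 TE-down list genes. With that trend removed, 2360 of the 18166 genes tested were TE-down, against 2981 in the main fit. LCP1 stood at 116 ± 4.99 CPM in shCtrl and 1.36 ± 0.42 CPM in shPRRC2B total RNA (SD, n = 3). On polysomes it stood at 43.8 ± 0.25 CPM in shCtrl and 1.41 ± 0.49 CPM in shPRRC2B. Its TE change thus rests on low shPRRC2B levels in both fractions. WASF2, ENAH and MSN were the 3 list genes among the study's PRRC2B-bound mRNAs, those with overlapping full-length and P2 sites. Sites of the full-length protein or of the P2 fragment alone were not looked for in the list genes. ENAH and MSN are named for that binding and not by the TE change.

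For each cytoplasmic actin, the genes with the most similar levels over the 12 libraries were found by Pearson correlation among 10050 genes of at least 10 CPM on average. For ACTB they were RSPRY1 and SLC20A1 (r = 0.97 each) and DERL1, CXADR and DCLRE1A (0.96 each). For ACTG1 they were EIF3D and CCT3 (0.97 each) and ATP5F1A, VPS51 and CCT8 (0.95 each). CCT3 and CCT8 are subunits of the chaperonin that folds new actin. The levels of ACTB and ACTG1 correlated at r = -0.10. The 12 points share 4 groups of line and fraction and are not independent.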

How the data were processed

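Total and polysome-associated RNA of shCtrl and shPRRC2B HEK293T cells was sequenced by the authors in 12 libraries. The authors deposited raw counts per gene name, without normalization. Per the submitters' processing notes, the tools were Trimmomatic 0.36 for trimming, HISAT2 2.1.0 for alignment to GRCh38 and featureCounts (Subread 2.0.1) for counting on GENCODE gene names. The methods name another HISAT release. The strand option is not given in the sources used here, so overlapping and antisense genes cannot be told apart, and reads of near-identical copies are uncertain. The count table held 0 columns belonging to no library. Groups came from the sample labels and the Dox time from the methods.

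The main test was edgeR 4.0.16 in R 4.3.3 (filterByExpr, minimum count 10; TMM; glmQLFit and glmQLFTest; 4 groups; no block; adjustment over 18166 genes); scripts were tested on simulated data. Library totals of 9855734 to 20837542 counts set the precision, and errors are SDs between replicates or SEs of the model. P-values measure the spread between these replicates of 1 clone per shRNA. The window of 1 listed site is not reported here. Transcript models were GENCODE canonical transcripts on GRCh38. Paralog ratios used counts plus 0.5. Alternatives were DESeq2 1.42.0, other scalings, filters and thresholds, replicate and culture blocks, a lowess trend on transcript length (span 0.3), added pseudogene counts, and each library left out.

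The members and gene lists were chosen with earlier results of these data known. All members are named; from each list at most the 2 highest and 2 lowest TE changes among called genes, genes not tested, and for each actin the 5 genes most like it. List genes not tested were ACTC1, ACTG2, ACTBL2, FMN1, CORO7, VIL1, ACTN3, MYL9, CNN1 and PFN3. Replicate numbers were checked for pairing: correlations of same-numbered deviations lay between -0.06 and 0.05, so the numbers were not taken to pair samples.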

Additional observations from a re-analysis of the deposited data

Results flagged for a closer look

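The polysome-to-total ratio changed differently in the shCtrl and shPRRC2B lines for 7 members, by edgeR's test of the interaction of line and fraction. The log2 TE change was -1.46 for ACTB, -1.14 for ACTG1, -0.54 for CFL2, -1.06 for ACTN1 and -0.97 for ACTN4, and 1.21 for TMSB10 and 0.56 for TMSB4X. Groups of 3 libraries are too small for a search for single outlying libraries.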

How the results depend on the processing

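The TE calls of ACTB, ACTG1, ACTN1 and ACTN4 held under every setting except the larger threshold for ACTN4 and the fit without shCtrl total replicate 3 for ACTG1. With the replicate block, and with a block on culture number within a line, 1 member was TE-up: TMSB4X was 0.56 (adjusted p = 0.0501 and 0.0667, edgeR) and CFL2 was -0.53 (0.0514) and -0.54 (0.0554). Keeping every gene with at least 1 count also left 1 TE-up member, and turned the polysome-to-total difference of ACTB in shCtrl to -0.051. With the length trend removed, with or without the replicate block, 0 members were TE-up, 1 was lower in total RNA, 0 were higher on polysomes, and 4 in shCtrl and 3 in shPRRC2B were higher on polysomes than in total RNA. Reversed by that setting, without and with the block, were the TE change of PFN1 (-0.40, -0.40) and TMSB4X (-0.046, -0.047), CFL1 in total RNA (0.020, 0.023), and the polysome-to-total difference of ACTB in shCtrl (-0.81, -0.80) and of ACTG1 (-0.78, -0.82), CFL1 (-0.28, -0.30) and PFN1 (-0.18, -0.20) in shPRRC2B. That setting with the block also called CFL1 TE-down (-0.53, adjusted p = 0.0467), and the replicate block alone called ACTB higher in total RNA (0.50, adjusted p = 0.0144). TMSB10 was also called lower in total RNA with TMM within each fraction (-0.55) and with either other filter (-0.54 and -0.52). With total counts or TMM within each fraction, the polysome-to-total difference was -0.92 or -0.93 for ACTB and -0.24 or -0.25 for PFN2 in shCtrl, and -0.67 or -0.65 for ACTG1 in shPRRC2B. At a minimum log2 change of 1, 3 members were TE-down and 1 TE-up, 0 were lower and 0 higher in total RNA, 1 was lower and 0 higher on polysomes, and 22 list genes were TE-down and 6 TE-up. Leaving out 1 library gave 1 to 2 TE-up members, 0 to 1 higher on polysomes and 7 to 16 TE-up list genes. The sign also turned for CFL1 in total RNA (range -0.15 to 0.0062, the last without shCtrl total replicate 2), ACTB between fractions in shCtrl (-0.017 without shCtrl total replicate 3, to 0.105), CFL2 on polysomes (-0.0015 without shCtrl polysome replicate 1, and -0.039, the lowest, without replicate 1 of the shPRRC2B polysomes, to 0.19), the TE change of PFN1 (-0.055 without shCtrl polysome replicate 3, to 0.27) and the log2 ACTB/ACTG1 ratio in total RNA (-0.012 without shPRRC2B total replicate 3, to 0.061). The causes were not tested. Fits that leave a group with 2 libraries share the spread of the other groups.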

Other observations

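Genes of nonmuscle myosin II, the motor that pulls on actin filaments, were TE-down for 2 of 6 tested by the edgeR fit and TE-up for none of them, where 16.4% of all genes tested were TE-down and 10.7% TE-up; the counts below are to be read against the same shares. These were the heavy chains MYH9 (-1.51) and MYH10 (-1.23). Of 11 tested genes of SRF, its actin-sensing coactivators and their classical targets, 3 were TE-down, including MRTFB (-1.22) and CNN2 (-1.13), and 2 TE-up, SRF (0.65) and FOS (2.19). Of 3 other profilins and thymosins tested, 2 were TE-up, TMSB15A (1.31) and TMSB15B (2.23). They are close copies of each other, so how reads split between them is uncertain. The TE changes of TMSB15B (SE 0.73) and FOS (SE 0.55) rest on low levels. In shCtrl and shPRRC2B, TMSB15B stood at 3.42 ± 2.01 and 1.02 ± 0.29 CPM in total RNA. On polysomes it stood at 3.66 ± 1.83 and 5.41 ± 4.03 CPM. FOS stood at 3.55 ± 0.58 and 1.81 ± 0.54 CPM in total RNA, and at 1.45 ± 0.45 and 3.32 ± 1.46 CPM on polysomes (SD, n = 3). Neither of the 2 muscle and other actins tested was called for TE, while ACTA2, smooth muscle actin, was called higher in shPRRC2B total RNA (0.91, adjusted p = 0.0191, edgeR), at 2.09 ± 0.63 CPM in shCtrl and 4.001 ± 0.17 CPM in shPRRC2B (SD, n = 3).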
